A study of Homo sapiens with 16 samples.

Results

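The genes for 9 chemokine and chemoattractant receptors of monocytes were followed in the human leukaemia line Molm14: CCR1, CCR2, CCR7, CX3CR1, CXCR2, CXCR4, C5AR1, FPR1 and C3AR1. They were taken by gene symbol, with earlier results of these data known, and 9 of 9 were found among the 22445 genes of the expression table and passed the filter on low values. Molm14 is an established acute myeloid leukaemia line that carries a KMT2A fusion gene. RNA-seq was done on 4 groups of 4 libraries after 7 days of exposure, with medium and compound renewed on day 4. The DMSO group received no inhibitor. The iDOT1L group received EPZ5676, an inhibitor of the H3K79 methyltransferase DOT1L, at 0.16 uM, and the iEZH2 group received GSK126, an inhibitor of the H3K27 methyltransferase EZH2, at 0.3 uM. The Combo group received both at these doses. All groups shared the same line and medium, and the labels do not say whether the 4 libraries of a group came from separate cultures, so p-values measure the spread between these libraries, which may be technical.

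Chemoattractant receptors are G protein-coupled receptors with a bundle of membrane-spanning helices. Binding of a chemokine, a complement fragment or a formylated bacterial peptide releases G protein subunits, mostly of the Gi class, and the cell moves up the gradient; receptor kinases, arrestins and RGS proteins then end the signal. In monocytes, CCR2 and its ligand CCL2 draw cells out of the bone marrow, CX3CR1 marks patrolling monocytes, and CXCR4 with its ligand CXCL12 holds cells in the marrow.

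CCR2 rose about 8-fold with DOT1L inhibition, alone or with EZH2 inhibition. CCR1, its neighbour on chromosome 3, fell with EZH2 inhibition and had its lowest mean with both compounds. CX3CR1 rose with DOT1L inhibition, was lower with EZH2 inhibition, and with both compounds had a mean near that of DMSO. C3AR1 fell in Combo. CXCR4, with the highest level of the 9, did not pass the test in any comparison, and neither did the low receptors CCR7, CXCR2, C5AR1 and FPR1.

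Values are normalised counts, recovered from the deposited log2 values and close to the number of reads: 1 read was worth 0.85 to 1.13 normalised counts, depending on the library. Changes are differences of log2(normalised count + 1) with their standard error, tested with limma over all 16 libraries and all 22331 genes that passed the filter; a gene was called at a Benjamini-Hochberg adjusted p under 0.05. The libraries held an estimated 20.6 to 27.3 M reads each, and their log2 values correlated at 0.967 to 0.981 over all pairs. As a check of the cell type, 13 of 13 genes that mark the line (among them FLT3, MEIS1, HOXA9 and CD33) were detected in every library, the lowest at 117. The 24 monocyte markers were uneven: CD14 (0 to 8.90), FCN1 (0 to 16.3) and S100A12 (0 to 5.69) were at 0 in at least 1 library, while LYZ (2225 to 21832), CD36 (814 to 4990), FCGR1A (472 to 1047) and S100A9 (229 to 535) were well detected in all. Of the 31-base words of FCGR1A 80.6% are found in other genes too, and of those of LYZ 39.3%, which leaves both levels uncertain. Of 12 lymphoid markers, CD3D, MS4A1 and CD79B were at 0 in at least 1 library, but NCAM1 (2209 to 4184), PAX5 (430.2 to 1343), NKG7 (256 to 687) and KLRD1 (54.9 to 290.4) were detected in every library. Of 6 erythroid and megakaryocyte markers, KLF1 lay between 0 and 3.12, while GP1BA (26.9 to 80.4) and GP9 (6.87 to 28.1) were detected in every library. Of 12 dendritic cell markers, CD1C (0 to 9.0) was at 0 in at least 1 library and IL3RA (742 to 1786) was well detected. Among 11 stromal and epithelial markers, VWF lay between 0 and 9.7. PECAM1 (1302 to 3680) and KRT18 (406 to 982, with 35.0% of its words shared) were detected in every library.

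In the DMSO group the order of the levels per kilobase of the longest coding transcript was CXCR4, CX3CR1, CCR1, CCR2, C3AR1, CXCR2, FPR1, CCR7 and C5AR1. CXCR4 stood alone, at 1181 to 1381 normalised counts per kilobase. CX3CR1 (208 to 265) and CCR1 (169.7 to 255) overlapped each other, and CCR2 (44.4 to 65.6) lay below both. C3AR1 (12.1 to 34.2) and CXCR2 (8.55 to 28.6) overlapped, as did FPR1, CCR7 and C5AR1, between 0.61 and 10.3. With DOT1L inhibition CCR2, at 392 to 513 per kilobase, reached the level of CX3CR1, at 365 to 490.4, and the ranges of these genes overlapped.

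**Figure D1:**
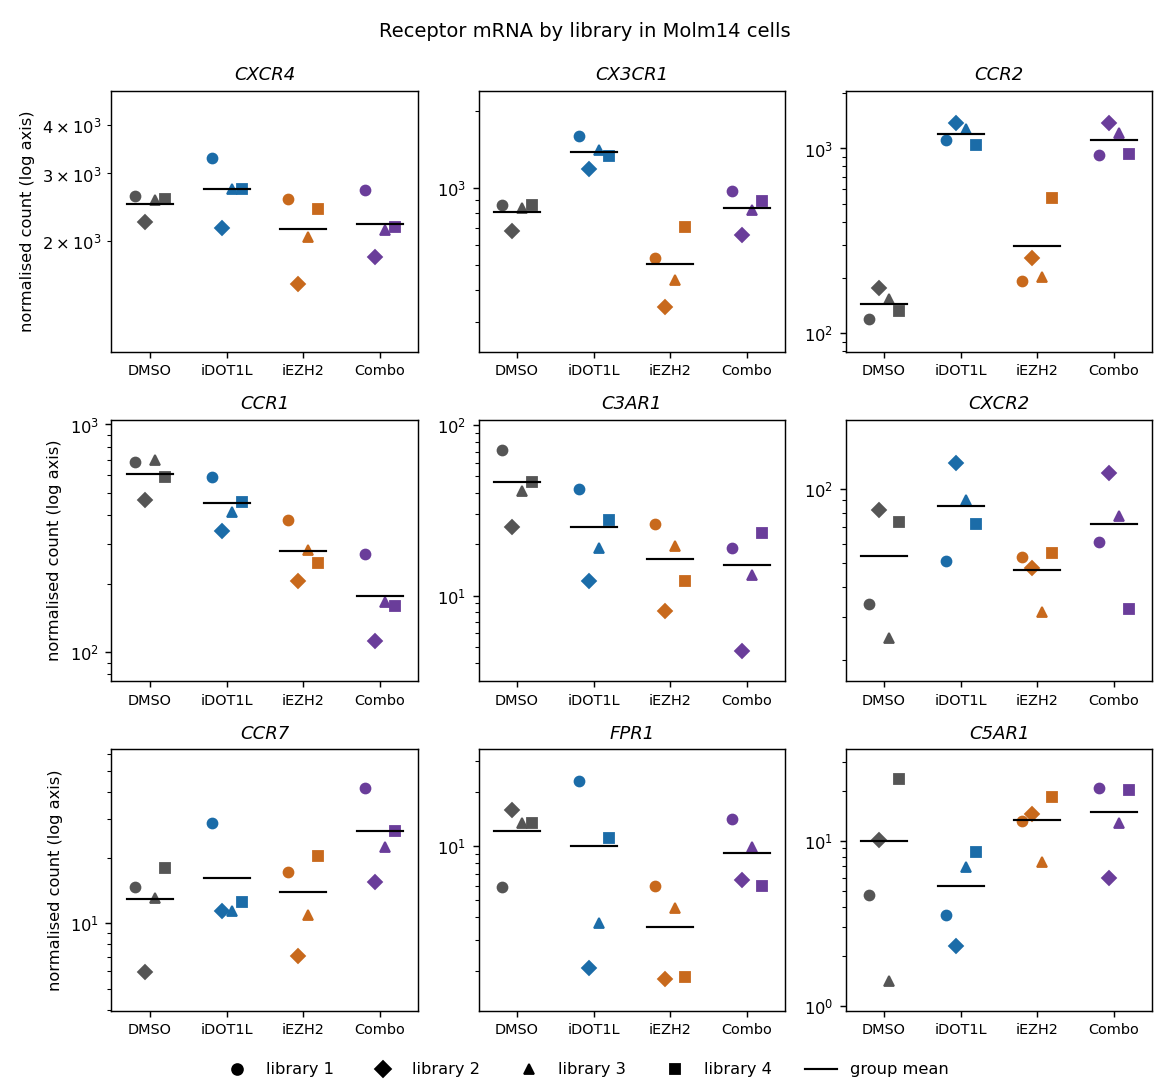
Normalised count (log axis, scaled separately for each gene) of the 9 receptors in each of the 16 libraries, by group; the symbol shape gives the library number and the black line the group mean. The 4 iDOT1L libraries of CCR2 lie between 1047 and 1371 and the DMSO libraries between 119 and 175, while in CCR1 all 4 Combo libraries lie below all 4 DMSO libraries.

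CCR2 (ENSG00000121807, GRCh38 chr3:46353734-46360928, plus strand) is the receptor for CCL2. Its values in libraries 1 to 4 were 119, 175, 153 and 132 in DMSO, and 1115, 1371, 1270 and 1047 in iDOT1L. They were 192, 255, 201 and 539 in iEZH2, and 926, 1369, 1216 and 937 in Combo. Every iDOT1L and Combo library lay above every DMSO and iEZH2 library, and every iEZH2 library lay above every DMSO library, with library 4 of iEZH2 well above its group.

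The mean rose from 145 ± 24.7 (SD, n = 4) in DMSO to 1201 ± 147 in iDOT1L, a log2 change of 3.05 ± 0.25 (SE; limma, adjusted p = 1.58e-06), or 8.28-fold. In Combo it was 1112 ± 218, a log2 change of 2.93 (limma, adjusted p = 5.35e-07). Adding the EZH2 inhibitor to the DOT1L inhibitor made no detected difference: the log2 difference of Combo from iDOT1L was -0.12, with a 95% interval of -0.64 to 0.40. By size, the iDOT1L change ranked 12 of the 613 protein-coding genes called higher in that comparison, and the Combo change 43 of 1427.

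With the EZH2 inhibitor alone the CCR2 mean was 297 ± 164, a log2 difference of 0.91 from DMSO that did not pass the test (limma, adjusted p = 0.052; 95% interval 0.39 to 1.43). Without library 4 of iEZH2 the difference was 0.58 and was not called either; without DMSO library 2, iEZH2 library 1 or iEZH2 library 3 in turn it was called, at limma adjusted p of 0.0487, 0.0219 and 0.0415. It was also called among genes with a mean of at least 10 (limma, adjusted p = 0.0382). With the replicate number as a block (a fit that rests on how the libraries pair) it was called (limma, adjusted p = 0.0341). CCR2 was higher in iDOT1L than in iEZH2 by 2.14 (limma, adjusted p = 3.86e-05) and higher in Combo than in iEZH2 by 2.02 (limma, adjusted p = 0.000134).

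The gene whose values followed CCR2 most closely over the 16 libraries, among 12285 protein-coding genes, was MPO, the myeloperoxidase of granule-forming myeloid cells (Pearson r = 0.987). Its mean went from 862 in DMSO to 5031 in iDOT1L, 1254 in iEZH2 and 5237 in Combo. TAGAP (r = 0.977) and STX3 (r = 0.974) came next. These coefficients describe libraries that share their group, so they carry no p. The summed level of 24 monocyte marker genes was also higher in iDOT1L and Combo than in DMSO: it lay between 24255 and 26340 in DMSO, 32485 and 36283 in iDOT1L, 20956 and 26002 in iEZH2, and 32397 and 43355 in Combo. Abundant genes weigh most in that sum, LYZ above all with a mean of 7936, and the markers did not move together: 6 rose and 3 fell (ITGAX, ITGAM and CD68) in iDOT1L, 2 rose and 3 fell in iEZH2, and 7 rose and 4 fell in Combo. Of all tested genes 3.08% rose and 3.17% fell in iDOT1L, 1.30% and 2.05% in iEZH2, and 7.22% and 8.80% in Combo. Shared 31-base words make up 39.3% of LYZ and 81.2% of CD68, so both levels are uncertain. Of 10 neutrophil markers, MPO and CEBPE rose and AZU1 and ELANE fell in iDOT1L. In Combo MPO, CEBPE and MMP9 rose and AZU1 fell, and in iEZH2 0 were called. Of these, MMP9 and AZU1 are uncertain, with 13.8% and 10.3% of their words shared. CEBPE lay between 0 and 18.3 over all libraries, so its calls rest on a few reads. The part of the monocyte and neutrophil markers in the CCR2 result was not tested. In bulk RNA more cells of a kind and more RNA per cell cannot be told apart.

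CCR1 (ENSG00000163823, chr3:46201709-46208396, minus strand), a receptor for CCL3 and CCL5, lies 145.3 kb from the start of CCR2, within the span of CCR3 on the other strand and with no exon shared. Its values in libraries 1 to 4 were 686, 464, 697 and 586 in DMSO, and 589, 342, 413 and 457 in iDOT1L. In iEZH2 they were 379, 206, 282 and 247, and in Combo 271, 112, 167 and 159. Library 2 was the lowest in every group; the iEZH2 and Combo libraries all lay below the DMSO libraries, while iDOT1L overlapped DMSO.

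Against a DMSO mean of 608 ± 109 (SD, n = 4), CCR1 fell to 279 ± 74.1 in iEZH2, a log2 change of -1.14 ± 0.24 (limma, adjusted p = 0.0101), and to 177 ± 67.0 in Combo, a change of -1.83 (limma, adjusted p = 2.85e-05). Both calls held when any 1 library was left out. The iDOT1L mean of 450.4 ± 104 was not called (log2 difference -0.44, limma, adjusted p = 0.349; with the block, 0.0147). CCR1 was lower in Combo than in iDOT1L, with a log2 difference of -1.38 (limma, adjusted p = 0.00453). The Combo and iEZH2 groups overlapped, and their difference of -0.69 was not called (95% interval -1.18 to -0.19; limma, adjusted p = 0.133); it was called without Combo library 1 (-0.91, limma, adjusted p = 0.024). The difference of iDOT1L from iEZH2, 0.70, was not called (limma, adjusted p = 0.088) but was with the block (0.00041) and without iEZH2 library 1 (0.0372).

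The genes closest to CCR1 in pattern were C6orf223 (r = 0.979), INSIG1, which holds back sterol synthesis (r = 0.976), and FADS2, a fatty acid desaturase (r = 0.975). All 3 had their highest mean in DMSO and their lowest in Combo: INSIG1 went from 7242 to 2280 and FADS2 from 5323 to 1381.

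Of 12 genes analysed within 500 kb of CCR2, itself included, 6 encode other chemokine receptors or receptor-like proteins. Against DMSO, CCR2, CCR1 and LZTFL1 were called among the 12, and LZTFL1, a ciliary transport gene, fell in Combo by 0.63 on the log2 scale (limma, adjusted p = 0.0063). All of these were called in Combo, where 7.22% of all tested genes rose and 8.80% fell. CCR2 was the only one called in iDOT1L (all genes: 3.08% and 3.17%) and CCR1 the only one in iEZH2 (1.30% and 2.05%). CCR2 and CCR1, in the same cluster of receptor genes, thus moved in opposite directions in Combo.

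**Figure D2:**
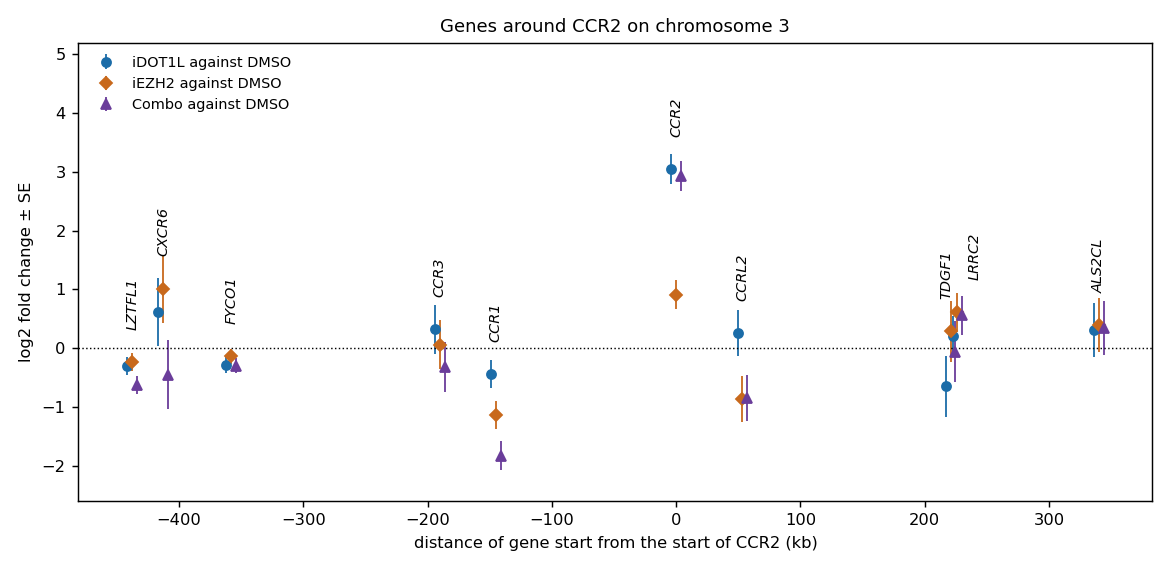
Log2 fold change against DMSO (y axis, bars: SE) of genes within 500 kb of CCR2 by distance of their start from the start of CCR2 (x axis, kb), for 3 treatments; 10 of the 12 genes, those with a mean of at least 5 in some group, are shown. CCR2 stands at 3.05 in iDOT1L and 2.93 in Combo, and CCR1 at -1.83 in Combo.

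CCR7 (ENSG00000126353, chr17:40553769-40565472, minus strand), the receptor that guides dendritic cells and lymphocytes to lymph nodes, was low. Its values were 14.6, 5.94, 13.0 and 18.0 in DMSO, 29, 11.4, 11.4 and 12.5 in iDOT1L, 17.1, 7.07, 10.9 and 20.3 in iEZH2, and 41.9, 15.4, 22.5 and 26.6 in Combo. The Combo range overlapped DMSO, though in each library number the Combo value was above the DMSO value. The log2 difference was 0.99 with a 95% interval of 0.13 to 1.85, which did not pass the test (limma, adjusted p = 0.112).

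CX3CR1 (ENSG00000168329, chr3:39263494-39281735, minus strand), the receptor for the membrane-bound chemokine CX3CL1, had values of 862, 677, 833 and 859.9 in DMSO and 1596, 1187, 1400 and 1335 in iDOT1L. In iEZH2 they were 535, 345, 438 and 706, and in Combo 976, 654, 817 and 888. The iDOT1L libraries were the highest and did not overlap any other group; iEZH2 overlapped DMSO through its library 4, and Combo overlapped DMSO.

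The mean rose from 808 ± 88.4 (SD, n = 4) in DMSO to 1379 ± 169.7 in iDOT1L (log2 change 0.77 ± 0.17, limma, adjusted p = 0.00923), a call that held without any 1 library. It fell to 506 ± 154 in iEZH2 (-0.72, limma, adjusted p = 0.0246). That call was lost without DMSO library 1, 3 or 4, or iEZH2 library 2 or 3, at adjusted p from 0.0746 to 0.0819. In Combo the mean was 834 ± 136 and the log2 difference from DMSO 0.04 (95% interval -0.32 to 0.40). Combo was lower than iDOT1L by a log2 change of -0.73 (limma, adjusted p = 0.0277), lost without iDOT1L library 1, 3 or 4 or Combo library 2, 3 or 4 (0.0577 to 0.107). It was higher than iEZH2 by 0.75 (limma, adjusted p = 0.0154), lost without iEZH2 library 2 or 3 or Combo library 1 or 4 (0.0509 to 0.0616). The difference between the inhibitors was firmer: iDOT1L exceeded iEZH2 by 1.49 (limma, adjusted p = 2.81e-05), and that call held without any 1 library.

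The genes nearest to CX3CR1 in pattern were TWF2, an actin-binding protein (r = 0.982), CD244, a receptor of natural killer cells (r = 0.974), and MARCH9 (r = 0.968). CD244 had means of 289 in DMSO, 499 in iDOT1L, 183 in iEZH2 and 309 in Combo, the same order as CX3CR1.

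Bases before the annotated starts of the receptors that moved, and of CXCR4 for contrast, are shown because CCR2 and CX3CR1 rose together with DOT1L inhibition while CCR1 and C3AR1 fell in Combo. They come from RefSeq (GRCh38.p14), which held entries for 8 of the 9 receptors, all but CCR7. Only bases outside GENCODE exons are printed, except for CCR2, whose whole window lies in an annotated exon and is given as 30 bases. The runs are chr3:39281736-39281985 on the minus strand for CX3CR1, chr3:46353896-46353925 on the plus strand for CCR2 and chr3:46208397-46208563 on the minus strand for CCR1. Those of C3AR1 and CXCR4 are chr12:8066472-8066609 and chr2:136118166-136118399, both on the minus strand. Each runs 5′ to 3′ on the strand of its gene, and capitals mark matches on either strand to 5 short motifs. ETS factors such as PU.1, a master regulator of myeloid cells, bind the core GGAAGT. AP-1 factors, which respond to growth and stress signals, bind TGANTCA. C/EBP factors, another myeloid family, bind a pair of half-sites searched as TTGCNNAA. The TATA box was searched as TATAAA, and the GC box, bound by Sp1 and its relatives, as GGGCGG. The motif list was written after these sequences had been seen.

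CX3CR1: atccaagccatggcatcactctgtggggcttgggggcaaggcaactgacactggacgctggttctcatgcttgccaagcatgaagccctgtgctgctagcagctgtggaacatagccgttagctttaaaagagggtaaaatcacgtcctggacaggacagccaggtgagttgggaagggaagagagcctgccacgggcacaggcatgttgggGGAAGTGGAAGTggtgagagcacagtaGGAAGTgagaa
CCR2: gccTGACTCAcactcaaggTTGCATAAgca
CCR1: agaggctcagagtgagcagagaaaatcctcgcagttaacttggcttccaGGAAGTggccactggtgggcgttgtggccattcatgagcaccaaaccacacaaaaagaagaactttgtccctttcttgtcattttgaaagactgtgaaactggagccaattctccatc
C3AR1: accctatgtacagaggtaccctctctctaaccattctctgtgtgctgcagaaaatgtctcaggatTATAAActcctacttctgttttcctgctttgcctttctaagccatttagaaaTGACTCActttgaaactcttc
CXCR4: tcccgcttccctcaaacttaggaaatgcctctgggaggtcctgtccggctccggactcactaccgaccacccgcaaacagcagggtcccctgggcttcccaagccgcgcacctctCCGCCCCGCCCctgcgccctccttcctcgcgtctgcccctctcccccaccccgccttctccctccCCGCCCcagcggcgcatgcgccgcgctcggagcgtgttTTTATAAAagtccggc

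CX3CR1 has 3 starts in RefSeq. In the 250 bases before the start farthest upstream, the one printed, it held GGAAGT 3 times, at -38, -32 and -11, with the first pair directly adjacent; the windows of its other starts held none of the 5 motifs. Of 35116 RefSeq windows of that length, 19.5% held at least 1 match and 0.436% held 3 or more. CCR1 held it at -201 and, within the exonic bases not printed, at -64; 2.88% of windows held 2 or more. CXCR2 and FPR1, which were not called, each held 1 match, at -23 and -95. CCR2 and C3AR1 each held a TGANTCA match, at -212 and -133, found in 6.6% of windows. CCR2 also held TTGCNNAA at -196 (9.1% of windows), and C3AR1 held TATAAA at -185 (10.7%). CXCR4 also has 3 starts; the window printed held GGGCGG 3 times (13.9% of windows hold 3 or more) and TATAAA on both strands, at -32 and -30, where the matches overlap, and the window of its start farthest downstream held GGGCGG once, at -171. A match is a run of letters and was not tested for binding.

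CXCR4 (ENSG00000121966, chr2:136114349-136118165, minus strand), the receptor for CXCL12, had values of 2617, 2238, 2562 and 2572 in DMSO and 3284, 2169, 2730 and 2738 in iDOT1L. They were 2575, 1547, 2053 and 2430 in iEZH2, and 2724, 1819, 2139 and 2179 in Combo. All 4 groups overlapped, and library 2 was the lowest of each. The log2 differences from DMSO were 0.12 in iDOT1L (95% interval -0.20 to 0.43), -0.24 in iEZH2 (-0.55 to 0.08) and -0.19 in Combo (-0.50 to 0.13), and none was called. The difference of iDOT1L from iEZH2, 0.36, was called with the block (limma, adjusted p = 0.00383) and not without it (0.19). The nearest pattern was that of NPTX2 (r = 0.973), followed by TSC22D3 and S100A10, both at 0.968.

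CXCR2 (ENSG00000180871, chr2:218125289-218137253, plus strand), the neutrophil receptor for CXCL8 and related chemokines, spread widely within groups. Its values were 33.8, 82.3, 24.6 and 73.6 in DMSO, 50.9, 128, 90.8 and 72.0 in iDOT1L, 52.7, 47.8, 31.4 and 55.1 in iEZH2, and 61.1, 117, 77.8 and 32.4 in Combo. The groups overlapped throughout, and the iDOT1L difference of 0.75 was not called (95% interval -0.09 to 1.60; limma, adjusted p = 0.35). Of its 31-base words 15.5% are found in other genes too, which leaves its level uncertain.

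C3AR1 (ENSG00000171860, chr12:8058302-8066471, minus strand) is the receptor for the complement fragment C3a. Its values were 71.4, 25.4, 41.0 and 46.7 in DMSO and 42.3, 12.2, 19.1 and 27.7 in iDOT1L. They were 26.2, 8.16, 19.5 and 12.1 in iEZH2, and 18.9, 4.72, 13.2 and 23.3 in Combo. Library 2 was again the lowest of every group, and all 4 Combo libraries lay below the lowest DMSO library.

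The C3AR1 mean fell from 46.1 ± 19.1 (SD, n = 4) in DMSO to 15.0 ± 8.03 in Combo, a log2 change of -1.65 ± 0.47 (limma, adjusted p = 0.0199). The call was lost without DMSO library 1 (-1.42, limma, adjusted p = 0.0744) or Combo library 2 (-1.22, adjusted p = 0.0661). The differences of -0.89 in iDOT1L and -1.46 in iEZH2 were not called (limma, adjusted p = 0.341 and 0.101) but were with the block (0.044 and 0.00234), and that of iEZH2 was called when all libraries numbered 2 were left out (-1.44, limma, adjusted p = 0.0469). C3AR1 and CCR1 had similar values over the 16 libraries (r = 0.85), which share group and library number. In the lowest libraries, such as 4.72 in Combo and 8.16 in iEZH2, the C3AR1 value rests on a few reads.

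C5AR1 (ENSG00000197405, chr19:47290023-47322066, plus strand), the receptor for the complement fragment C5a, lay between 1.41 and 23.8 in DMSO, 2.30 and 8.55 in iDOT1L, 7.45 and 18.5 in iEZH2, and 5.98 and 21.0 in Combo. FPR1 (ENSG00000171051, chr19:51745172-51804110, minus strand), the formyl peptide receptor, lay between 5.91 and 16 in DMSO, 2.07 and 23.2 in iDOT1L, 1.8 and 5.98 in iEZH2, and 5.99 and 14.2 in Combo. Neither was called in any comparison. The largest of their differences from DMSO was that of FPR1 in iEZH2, -1.58 with a 95% interval of -2.73 to -0.42 (limma, adjusted p = 0.139). These counts of a few reads leave intervals more than 2 log2 units wide, so a 2-fold change could not be resolved for either gene. Shared 31-base words make up 10.5% of C5AR1 and 5.0% of FPR1.

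Counted together, 2 of 9 receptors rose and 0 fell in iDOT1L against DMSO, where 3.08% of all tested genes rose and 3.17% fell. In iEZH2 against DMSO 0 rose and 2 fell, against 1.30% and 2.05% of all genes. In Combo against DMSO 1 rose and 2 fell, against 7.22% and 8.80%. With an upper-quartile scaling the share of higher calls among all called genes in that comparison went from 45.1% to 59.9%, and the receptors called were still 1 higher and 2 lower. The median log2 difference over the 9 was 0.12, -0.24 and 0.04, and over all tested genes 0.009, 0.016 and 0.028. The 3 comparisons share the DMSO libraries.

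Between treatments, 0 receptors were higher and 2 lower in Combo than in iDOT1L, against 1.11% and 1.48% of all genes. In Combo against iEZH2 2 were higher and 0 lower, against 2.08% and 1.72%, and in iDOT1L against iEZH2 2 were higher and 0 lower, against 3.88% and 3.06%. The share of higher calls over all genes moved under upper-quartile scaling from 42.8% to 61.5% in Combo against iDOT1L and from 54.7% to 66.3% in Combo against iEZH2.

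**Figure D3:**
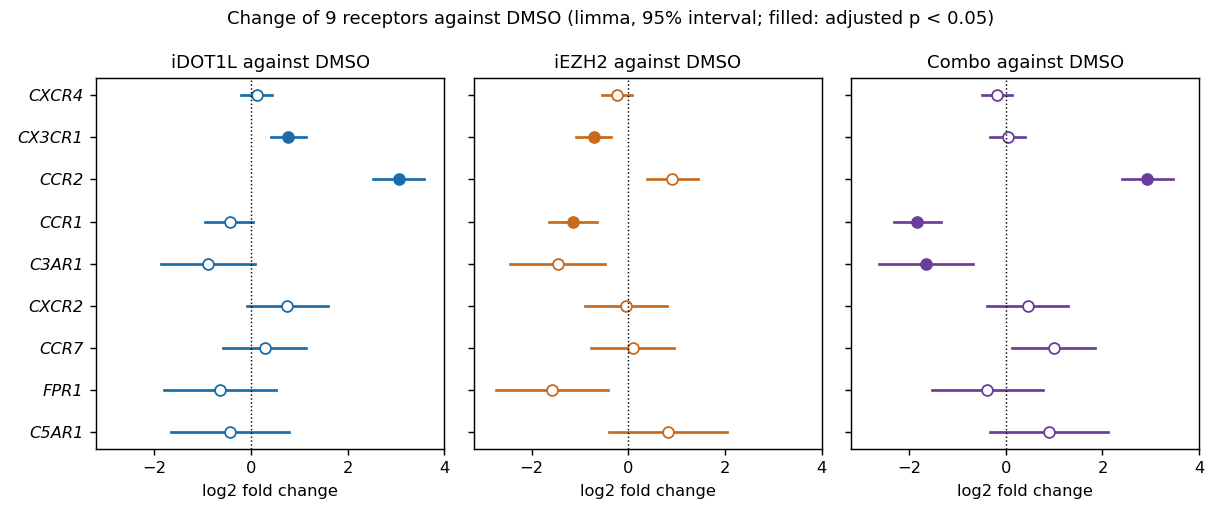
Log2 fold change against DMSO (x axis) of the 9 receptors (y axis) for each treatment, with 95% intervals from limma; filled points passed the test at an adjusted p under 0.05. CCR2 stands apart on the right in iDOT1L and Combo, CX3CR1 lies at 0.77 in iDOT1L, -0.72 in iEZH2 and 0.04 in Combo, and the low receptors at the bottom have the widest intervals.

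Libraries of different groups carry the numbers 1 to 4, and what the number stands for is not stated in the labels. Library 2 was the lowest of its group in 4 of 4 groups for CCR1, CCR7, CX3CR1, CXCR4 and C3AR1, and the highest in 3 of 4 for CCR2 and CXCR2. In CCR1 library 2 stood at 0.71, 0.70, 0.68 and 0.56 times the mean of the other libraries in DMSO, iDOT1L, iEZH2 and Combo, and in C3AR1 at 0.48, 0.41, 0.42 and 0.26 times. The number therefore separated libraries of 1 group by amounts near those between some groups. Leaving out all libraries numbered 2, an alternative chosen after these values were seen, kept every receptor call and added that of C3AR1 in iEZH2. Library 4 of iEZH2 stood apart from its group in CCR2 and in some genes named below. It held 337 in RGS18, where libraries 1 to 3 held 216, 128 and 158. In MEF2C it held 3049, where they held 6176, 4799 and 4288, while in CCR1 and FGR it lay within its group. Without it the genes called went from 850 to 1349 in Combo against iEZH2, while leaving out iEZH2 library 1, 2 or 3 gave 550, 649 and 493. In iEZH2 against DMSO they went from 748 to 523 without library 4. That fall was not particular to it, since leaving out library 1, 2 or 3 gave 1046, 523 and 473. The iEZH2 means and the sums with iDOT1L include it.

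A fit with the number as a block was calculated beside the main one. Whether the numbers pair the libraries depended on which genes were used to judge it. Over genes with a mean of at least 50, the deviations of same-numbered libraries correlated above 0.1 for all 4 numbers in 3 of 6 pairs of groups. These were the pairs among DMSO, iDOT1L and iEZH2, and over all tested genes it was 0 of 6. Number 3 passed weakly, at 0.109 (iDOT1L and DMSO), 0.198 (iEZH2 and DMSO) and 0.113 (iEZH2 and iDOT1L). Library 3 of DMSO correlated best with another number in iDOT1L and in iEZH2, as did libraries 3 and 4 of iDOT1L in iEZH2. With the block, 2 receptors were higher (CCR2 and CX3CR1) and 2 lower (CCR1 and C3AR1) in iDOT1L against DMSO, where 5.69% of all genes were higher and 6.53% lower. In iEZH2 against DMSO 1 was higher (CCR2) and 3 lower (CCR1, CX3CR1 and C3AR1), against 3.87% and 5.89%. In iDOT1L against iEZH2 4 were higher (CCR2, CX3CR1, CXCR4 and CCR1) and 0 lower, against 7.35% and 6.91%.

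The effect of both inhibitors was set against the sum of each alone on the log2 scale. For CX3CR1 the sum was 0.05 and Combo 0.04, a difference of -0.02 with a 95% interval of -0.52 to 0.49. For CCR1 the sum was -1.58 and Combo -1.83 (difference -0.24, -0.94 to 0.46). CCR2 in Combo fell short of its sum of 3.96 by a difference of -1.03 (-1.77 to -0.30; limma, unadjusted p = 0.00863, adjusted p = 1.0), and FPR1 lay above its sum by 1.83 (0.20 to 3.46; unadjusted p = 0.0297, adjusted p = 1.0). None of the 9 was called, and neither was any of the 22331 genes (0% higher, 0% lower): 848 genes, 3.8%, had an unadjusted p under 0.05, and limma without its trend and robust options called 1 gene.

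**Figure D4:**
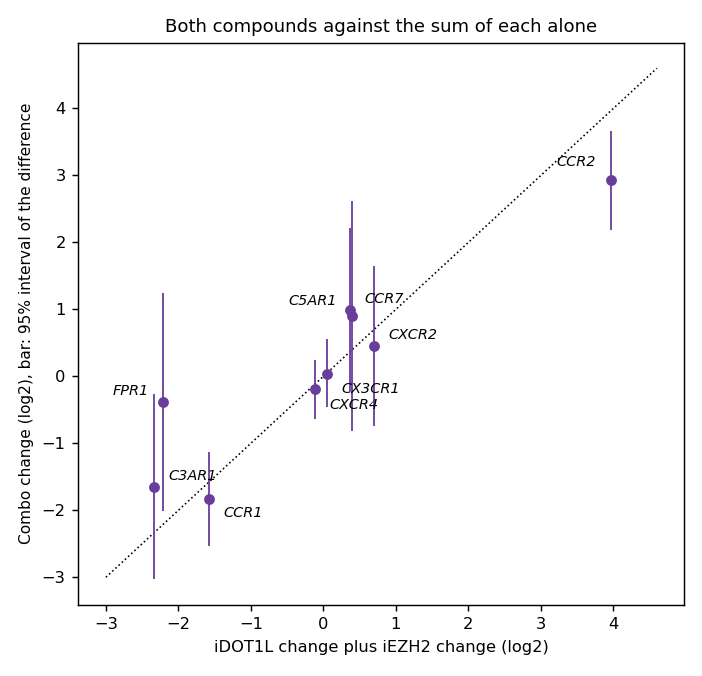
Log2 change of Combo against DMSO (y axis) and the sum of the iDOT1L and iEZH2 changes (x axis) for the 9 receptors; bars give the 95% interval of the difference and the dotted line marks equality. CX3CR1 and CXCR4 lie on the line near 0, and CCR2 lies below it at 3.96 and 2.93.

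Genes of the same families and of the pathway were counted from lists chosen by name. The shares of all tested genes called higher and lower, against which these counts are to be read, were 3.08% and 3.17% in iDOT1L, 1.30% and 2.05% in iEZH2 and 7.22% and 8.80% in Combo; with the block they were 5.69% and 6.53% in iDOT1L and 3.87% and 5.89% in iEZH2. Of 14 other chemokine receptors tested, 0 were called in iDOT1L, 0 in iEZH2 and 2 in Combo, both lower: CXCR3, a receptor of T cells, by -1.14 (limma, adjusted p = 0.0136) and CCR10 by -0.73 (adjusted p = 0.0344). The CCR10 call was lost without DMSO library 1, 3 or 4 or Combo library 2 or 3, and 28.2% of its words are shared, so its level is uncertain. With the block, CCR10 was called lower in iDOT1L, and CCR10 and CXCR3 in iEZH2, making 1 and 2 of the 14. Of 18 other chemoattractant receptors, 2 rose in iDOT1L, 0 were called in iEZH2, and 2 rose and 1 fell in Combo; with the block, 4 rose in iDOT1L and 3 fell in iEZH2 (S1PR3, S1PR4 and PTAFR). PTAFR, the receptor for platelet-activating factor, rose from a mean of 153 to 498 in iDOT1L (1.68, limma, adjusted p = 1.65e-05) and to 254 in Combo (0.74). LTB4R, the leukotriene B4 receptor, rose in Combo by 0.45 and C5AR2, the second C5a receptor, fell by 0.78 on the log2 scale. The LTB4R call was lost without DMSO library 1 or 4 or Combo library 3 or 4, and that of C5AR2 without DMSO library 1, 3 or 4 or Combo library 1, 2 or 3. Shared words make up 16.9% of C5AR2 and 10.3% of LTB4R, so both levels are uncertain. The call of S1PR5 in iDOT1L (0.39, limma, adjusted p = 0.046) was lost without any 1 of its 8 libraries.

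Of 14 genes for ligands of these receptors, 1 rose and 2 fell in iDOT1L (all genes: 3.08% and 3.17%), 0 rose and 1 fell in iEZH2 (1.30% and 2.05%), and 3 rose and 1 fell in Combo (7.22% and 8.80%). With the block 2 rose and 2 fell in iDOT1L, CXCL8 being added. CCL5, a ligand of CCR1, fell in all 3, from 494 to 262, 218 and 180.2 (log2 changes -0.90, -1.17 and -1.45), so ligand and receptor were both lower in iEZH2 and Combo; 22.4% of the words of CCL5 are shared, which leaves its level uncertain. ANXA1, whose peptides act on formyl peptide receptors, rose by 1.24 in iDOT1L and 1.34 in Combo. In Combo CXCL8, the ligand of CXCR2, rose by 2.14, from a DMSO mean of 6.54 to 25.0. Its DMSO libraries lay between 0.975 and 11.6, so the size of that change rests on a few reads. C3, the precursor of C3a, rose by 0.71 in Combo, a call lost without DMSO library 1, 3 or 4 or Combo library 1, 3 or 4.

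Of 32 signalling genes, 4 rose and 1 fell in iDOT1L, 0 rose and 4 fell in iEZH2, and 2 rose and 9 fell in Combo, where 7.22% of all genes rose and 8.80% fell. With the block the counts were 6 and 7 in iDOT1L (all genes: 5.69% and 6.53%) and 1 and 10 in iEZH2 (3.87% and 5.89%). GNG2, a G protein gamma subunit, rose by 1.55 in iDOT1L and 1.60 in Combo, and ELMO1, which links receptors to Rac, by 0.47 and 0.55. GNA15, a G protein alpha subunit of blood cells, fell by 0.77 in iEZH2 and by 0.80 in Combo. FGR, a Src-family kinase of myeloid cells, changed by -0.90, -1.18 and -1.98 in iDOT1L, iEZH2 and Combo, each called; the iDOT1L call was lost without any 1 of its 8 libraries and the iEZH2 call without DMSO library 3.

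Of 16 genes that end receptor signals, 2 rose and 1 fell in iDOT1L, 0 rose and 2 fell in iEZH2, and 1 rose and 3 fell in Combo (all genes: 7.22% and 8.80%). With the block 6 rose and 2 fell in iDOT1L (5.69% and 6.53%) and 1 rose and 5 fell in iEZH2 (3.87% and 5.89%). RGS18, an RGS protein of platelets and myeloid cells, rose by 1.79 in iDOT1L and 1.40 in Combo. RGS16 changed by -1.69, -0.84 and -1.70 in the 3 treatments, from a DMSO mean of 4080, each called; the iEZH2 call was lost without DMSO library 3 or 4 or iEZH2 library 2 or 4. ARRB1, a beta-arrestin, changed by -0.50 in iEZH2 and -0.42 in Combo, and RGS3 by -1.54 in Combo. Among 13 regulators of myeloid genes, 1 rose and 3 fell in iDOT1L, 0 rose and 3 fell in iEZH2, and 1 rose and 5 fell in Combo; with the block 6 fell in iEZH2, SPI1, RUNX1 and MEF2C being added. MEF2C fell by 1.21 in iDOT1L and by 1.89 in Combo, and EGR1 changed by -3.16, -1.79 and -3.42 in iDOT1L, iEZH2 and Combo, where the iEZH2 call was lost without DMSO library 1 or 3 or iEZH2 library 4. NR4A1, uncertain with 12.5% of its words shared, changed by -1.65, -1.28 and -1.87, and IRF8, needed for monocyte development, by -0.40 in iEZH2 and -0.63 in Combo, each called.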

How the data were processed

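The table holds log2 values that the authors deposited for 16 libraries; the submitters' processing notes name kallisto, DESeq2 and hg38 without versions. These values had the form of a variance-stabilised scale whose lowest value is a count of 0, and that form was inverted to normalised counts. Symbols and positions come from GENCODE v29, which matched 20784 IDs. Because the unit is log2 and not counts, no count model was used. Genes above 1 in at least 4 libraries (22331) were tested on log2(normalised count + 1) with limma 3.58.1 in R 4.3.3, with trend and robust options and 4 group means; the fit was tested on simulated data. The treatment text was followed where the extraction text, which speaks of a sort, conflicts with it.

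The 9 receptors and all lists were chosen with earlier results of these data known. Of the other lists, up to 4 genes called against DMSO with the lowest adjusted p in Combo were named, besides S1PR3, S1PR4, SPI1, RUNX1, LZTFL1 and the marker genes, which were named after their values were seen. Some genes are not reported here. Pattern partners are the 3 protein-coding genes with the highest Pearson r.

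The pairing by replicate number was judged from the correlation of same-numbered libraries' deviations from their group means, with 0.1 as the threshold. A pair of groups passed only if all 4 numbers were above it. It was looked at over 9 gene sets in turn, after blocked values had been seen, so the choice was not blind. Genes with a mean of at least 50 (12270) were adopted, as in an earlier analysis of these data. Of the 9 sets, 5 gave the same 3 pairs of groups, 1 gave 0, 1 gave 1, 1 gave 4 and 1 gave 5. The 5 sets that agreed were cut at similar mean levels (12270 to 13216 genes) and overlap closely, so they are not separate checks.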

Additional observations from a re-analysis of the deposited data

Results flagged for a closer look

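Within the 36 groups of 4 libraries formed by 9 receptors and 4 treatments, 3 held a library far from the others, by the gap to the nearest library over the group's range; chance gives about 1 in 20 groups. CCR7 in iDOT1L had 1 high library at 29 normalised counts, with 0.939 of the range between it and the next. CX3CR1 in DMSO had 1 low library at 677 (0.84), and CXCR4 in DMSO had 1 low library at 2238 (0.854). Both low values belong to library 2 of DMSO, which was also the lowest DMSO library for CCR1, CCR7 and C3AR1.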

How the results depend on the processing

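Over 25 alternative settings no receptor call reversed. Of 1127 receptor values recalculated, 1088 stayed on their side of the threshold, 23 lost a call and 16 gained one. With the replicate block the receptors called went from 2 to 4 in iDOT1L against DMSO, from 2 to 4 in iEZH2 against DMSO and from 2 to 4 in iDOT1L against iEZH2. In the comparisons with Combo, numbers 2 and 4 passed the pairing threshold over the genes adopted and number 3 did not. There the block added CCR7 in Combo against DMSO (limma, adjusted p = 0.019), CXCR4 in Combo against iDOT1L (0.0177) and CCR1 in Combo against iEZH2 (0.000775). Because the pairing verdict differed among 9 gene sets and was reached with blocked values known, calls that need the block rest on that choice.

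Among genes with a mean of at least 10, CCR2 in iEZH2 against DMSO was called (adjusted p = 0.0382). The call of CX3CR1 was lost in some settings: receptors called fell to 1 in iEZH2 against DMSO and in Combo against iEZH2, both without the trend and robust options and with the compared groups alone, and to 1 in Combo against iDOT1L with upper-quartile scaling and without those options. Leaving out 1 library gave 2 to 2 receptors called in iDOT1L against DMSO, 1 to 3 in iEZH2 against DMSO, 2 to 3 in Combo against DMSO, 1 to 2 in Combo against iDOT1L, 1 to 2 in Combo against iEZH2, 2 to 3 in iDOT1L against iEZH2 and 0 to 0 for the departure from additivity. Depth limits C3AR1, CCR7, C5AR1 and FPR1, with values of a few reads in some libraries. TMM scaling was not run, since it needs counts.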
